A study of Mus musculus with 6 samples.

Results

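Lipolysis and lipid droplet genes were described in wound tissues of diabetic mice. The members were 10 genes, chosen by symbol and found in the deposited table of 33184 Ensembl gene IDs. They were the lipases Pnpla2, Pnpla3, Lipe and Mgll, the lipase regulators Abhd5 and G0s2, the droplet proteins Plin1, Plin4 and Cidec, and the receptor Adrb3. All 10 passed the filter on low values, a mean of at least 0.5 FPKM (fragments per kilobase of gene length, per mapped total), which 16005 genes passed.

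The study asked how SFRP2, a secreted modulator of Wnt signalling, bears on diabetic wound healing. Its transcriptome data hold 6 RNA-seq libraries of skin wounds, 3 labelled NC and 3 labelled SFRP2-siRNA. All 6 came from db/db mice of the C57BL/Ks strain, which lack a working leptin receptor and are obese and diabetic, so the NC group carries the same genotype as the treated group. Ages are not given. A full-thickness wound of 6 mm was made in the dorsal skin, and at dpi1 (1 day post-injury) the NC group received control siRNA and the other group SFRP2 siRNA, injected around the wound. Tissue was taken at dpi4, although the titles carry day 3. The treated samples carry the numbers siRNA-1, siRNA-2 and siRNA-3 in their titles. The supplement gives its 3 SFRP2 siRNA sequences the same numbers, and no source states whether each treated mouse received another sequence.

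Adipocytes store triglyceride in lipid droplets, and skin holds such cells beneath the dermis and around hair follicles. Stored fat is released step by step. Noradrenaline acts on β-adrenergic receptors, cAMP activates protein kinase A, and the kinase phosphorylates perilipin on the droplet surface, which frees the co-activator of adipose triglyceride lipase. Adipose triglyceride lipase then removes a fatty acid from triglyceride, hormone-sensitive lipase cleaves the diglyceride, and monoglyceride lipase ends the series.

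The libraries held 42.9 to 47.1 M reads (M for mega), as recovered from the FPKM steps, and the members rested on 185 to 62389 reads per library. Library SFRP2-siRNA 1 stood apart. Its Pearson correlation with the other libraries over all genes kept was 0.889 to 0.930, whereas the other 5 libraries correlated among themselves at 0.951 to 0.976. Counts of groups that do not overlap are therefore also given without SFRP2-siRNA 1. By the estimated weight of a library in the fit, NC 1 was lowest, at 0.36, beside 0.495 for SFRP2-siRNA 1. The targeted gene went against its label. Sfrp2 was at 11.6, 40.6 and 14.1 FPKM in NC 1, 2 and 3 and reached 50.6, 54.6 and 55.2 FPKM in SFRP2-siRNA 1, 2 and 3. The labels were thus not borne out at the transcript level, and every direction below is that of libraries so labelled. Mitochondrially encoded genes held a share of 35.8, 22.2 and 17.4% of all FPKM in the NC libraries and 16.6, 11.8 and 13.8% in those labelled SFRP2-siRNA.

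Promoter windows, 250 bases before to 50 bases after a start site, are shown for 4 members that contrast in their transcript levels. Pnpla3 and Pnpla2 are related lipases of which Pnpla3 had the larger difference between groups. Plin1 and Cidec both coat the droplet, and Plin1 lay lower in each treated library relative to Cidec. The sequences are from RefSeq (GRCm38.p6) and read 5′ to 3′ on the strand of the gene. Of the 10 members, 9 had an entry, with 12 windows in all; Adrb3 was not matched. Capitals mark the motifs searched on both strands, namely the cAMP response element TGACGTCA, the E-box CACGTG, the CCAAT box, the GC box GGGCGG, the TATA box TATAAA, the nuclear receptor motif AGGTCA and the DR1 element, a pair of such motifs 1 base apart.
Pnpla3, chr15:84167566-84167865, plus strand: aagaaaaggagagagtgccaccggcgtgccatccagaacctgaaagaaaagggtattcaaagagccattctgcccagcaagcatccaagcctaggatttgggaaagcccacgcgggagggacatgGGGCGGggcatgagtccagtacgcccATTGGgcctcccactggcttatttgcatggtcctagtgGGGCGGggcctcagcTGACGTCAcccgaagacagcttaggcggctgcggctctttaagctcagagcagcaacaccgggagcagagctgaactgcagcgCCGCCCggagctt
Pnpla2, chr7:141454938-141455237, plus strand: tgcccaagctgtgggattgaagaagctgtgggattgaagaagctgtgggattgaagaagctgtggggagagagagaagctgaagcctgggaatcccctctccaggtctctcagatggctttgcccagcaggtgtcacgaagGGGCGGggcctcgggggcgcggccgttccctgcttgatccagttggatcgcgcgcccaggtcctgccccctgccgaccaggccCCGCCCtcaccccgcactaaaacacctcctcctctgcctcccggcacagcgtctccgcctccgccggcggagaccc
Plin1, chr7:79732727-79733026, minus strand: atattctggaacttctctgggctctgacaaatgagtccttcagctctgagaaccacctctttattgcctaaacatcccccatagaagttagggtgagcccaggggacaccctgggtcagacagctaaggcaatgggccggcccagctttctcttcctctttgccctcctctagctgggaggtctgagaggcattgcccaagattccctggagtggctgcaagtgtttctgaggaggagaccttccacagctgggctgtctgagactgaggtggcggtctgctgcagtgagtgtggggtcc
Cidec, chr6:113435711-113436010, minus strand: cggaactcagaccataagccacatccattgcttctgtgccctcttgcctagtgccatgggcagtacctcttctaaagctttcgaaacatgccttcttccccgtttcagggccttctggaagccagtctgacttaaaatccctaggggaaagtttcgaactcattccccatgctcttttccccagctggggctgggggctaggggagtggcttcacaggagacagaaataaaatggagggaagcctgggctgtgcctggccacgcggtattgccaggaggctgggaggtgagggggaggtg

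The window of Pnpla3 held the cAMP response element, whose first base lay at -46 from the start site. This motif, the binding site of CREB, a substrate of protein kinase A, stood in 1 of the 12 member windows and in 1.79% of all 32817 windows. Pnpla3 also held a CCAAT box at -99, found in 37.4% of all windows, and GC boxes at -125, -61 and 38. Pnpla2 held GC boxes only, at -109 and -26, and that motif stood in 35.6% of all windows and in 7 member windows. An E-box, present in 7.15% of all windows, was found in windows of Lipe at -155 and Mgll at -44. The motif AGGTCA stood in that of Abhd5 at -69 and in 16.3% of all windows. The windows of Plin1 and Cidec shown above held none of the motifs, and TATAAA (13.6% of all windows) and DR1 (0.0396%) stood in no member window. A match is a description of letters in a window and not a binding site.

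**Figure D1:**
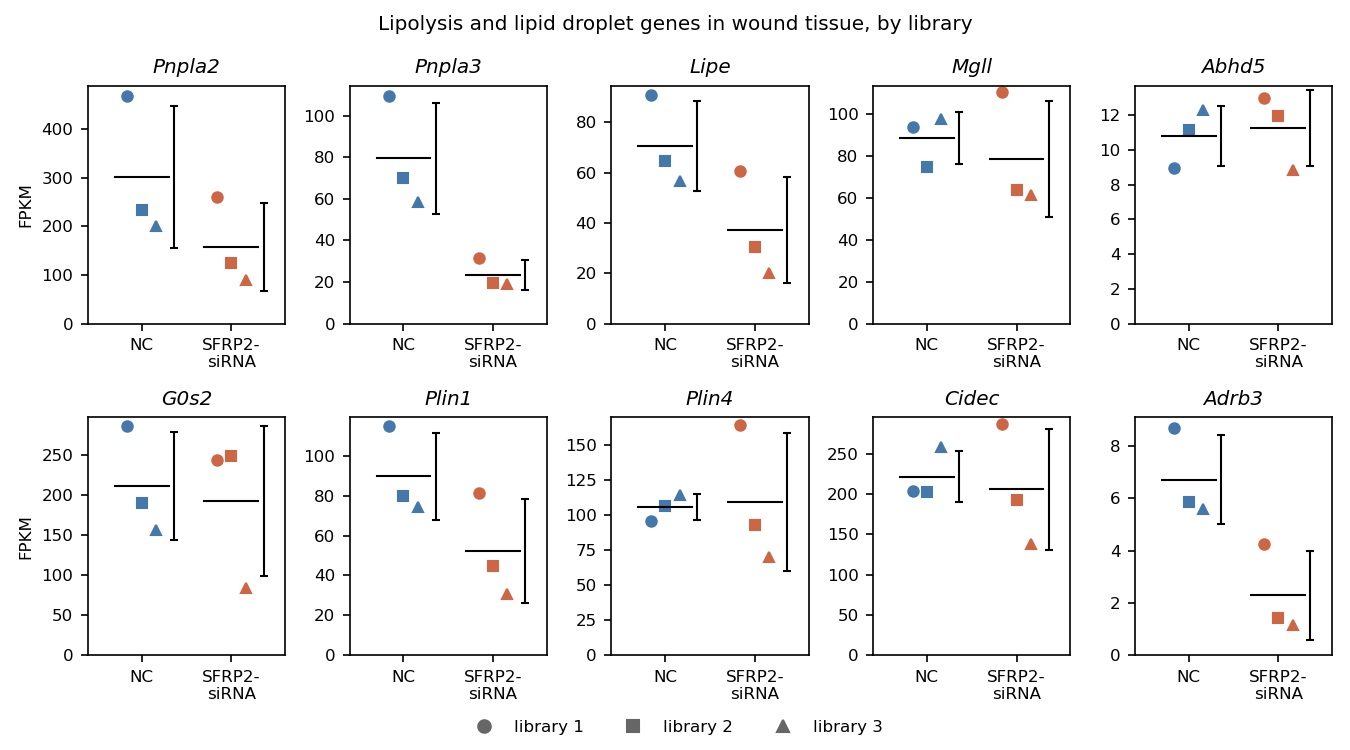
FPKM (y axis, linear, from 0) of the 10 members in each library, NC in blue and SFRP2-siRNA in orange, with a marker shape for each library number, the group mean as a line and the SD as a bar beside the points. The 3 treated libraries lie below the 3 NC libraries in Pnpla3 and Adrb3, and SFRP2-siRNA 3 is the lowest library in all 10 panels.

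Across the members, none passed the thresholds of the comparison between NC and SFRP2-siRNA, an adjusted p under 0.05 and an absolute log2 fold change above 1 (limma). Of all 16005 genes tested 0 passed, a background of 0.0%, and limma voom on recovered reads also called 0. At an unadjusted p under 0.05, 3 of 10 members (Pnpla3, Adrb3 and Lipe) were lower in the libraries labelled SFRP2-siRNA, against 2.86% of all genes, and 0 members were higher, against 6.72%. These 3 members also had a log2 fold change below -1, which together with that p held for 0.637% of all genes. In 2 members, Pnpla3 and Adrb3, every treated library lay below every NC library, as in 3.92% of all genes, and no member lay above, as in 13.9%. Their median log2 fold change was -0.55, beside 0.13 over all genes tested, and thus -0.68 relative to it. Under 4 other scalings it ran from -0.72 to -0.46. It was -0.86 without SFRP2-siRNA 1, -0.30 without SFRP2-siRNA 3 and -0.41 without NC 1. Bulk tissue was measured, so fewer cells of a type and less RNA per cell cannot be told apart.

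**Figure D2:**
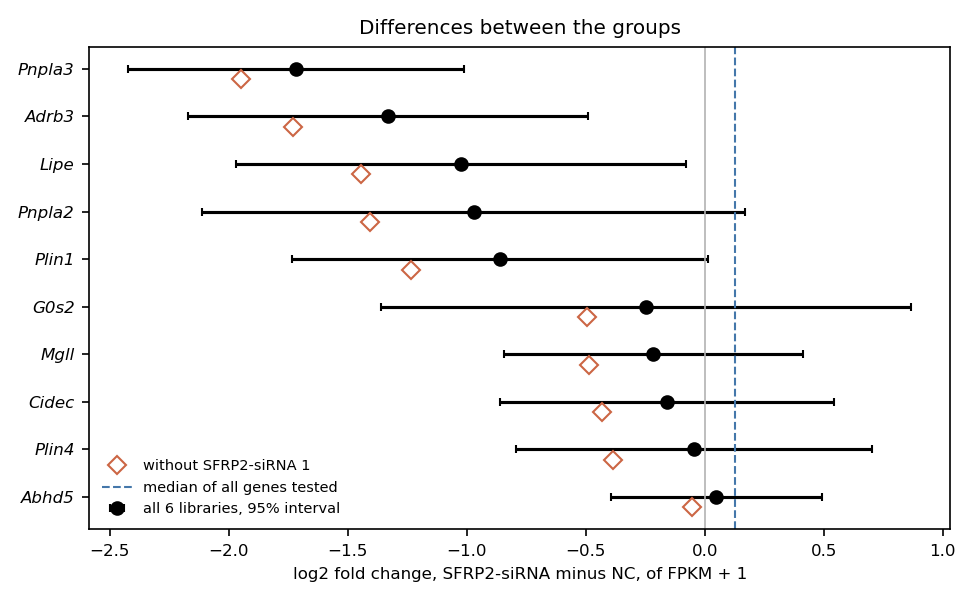
Difference between groups for each member on the log2(FPKM + 1) scale (x axis, SFRP2-siRNA minus NC), as filled points with their 95% limma intervals, with open diamonds for the fit without SFRP2-siRNA 1 and a dashed line at the median of all genes tested. The intervals of Pnpla3, Adrb3 and Lipe lie below 0, and each diamond lies further to the left than its point.

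Pnpla2 encodes adipose triglyceride lipase, which starts the breakdown of stored triglyceride (GRCm38 chr7:141455198-141460743, plus strand). It stood at 468, 234 and 199.98 FPKM in NC 1, 2 and 3 and at 260.3, 124.9 and 88.5 FPKM in SFRP2-siRNA 1, 2 and 3. SFRP2-siRNA 1 fell within the NC range and the other treated libraries lay under it, so the groups overlapped. The NC mean was 301 ± 146 FPKM and the treated mean 158 ± 90.5 FPKM (SD, n = 3 each). On the log2 scale the difference was -0.97 (SE 0.48, 95% interval -2.11 to 0.17, limma adjusted p = 0.523), and the exact permutation test gave p = 0.3, where 0.1 is the smallest p that 3 against 3 libraries allow.

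Pnpla3, chr15:84167837-84187236 on the plus strand, encodes a relative of adipose triglyceride lipase that sits on droplets and is known from its part in fatty liver. Its level was 109.7, 70.1 and 58.6 FPKM in the NC libraries and 31.5, 19.3 and 19.0 FPKM in the treated ones. The groups did not overlap, and the highest treated library was below the lowest NC library. Means of 79.5 ± 26.8 and 23.3 ± 7.12 FPKM (SD, n = 3 each) put the NC level 3.41 times above the other. This was the member with the largest difference in absolute size, -1.72 on the log2 scale (SE 0.30, 95% interval -2.42 to -1.01), with a limma adjusted p of 0.518 and an exact permutation p of 0.1. Its difference lay between -1.95 and -1.46 under the 17 alternatives. With limma voom on recovered reads, Adrb3 had a slightly larger difference, -1.79 beside -1.76 for Pnpla3. Of the 1548 exon bases of Pnpla3, 105 are shared with Gm49513 on the same strand, so reads there could belong to either gene.

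Lipe encodes hormone-sensitive lipase, the main diglyceride lipase of fat cells (chr7:25379527-25398710, minus strand). Its FPKM values were 90.7, 64.5 and 56.6 in NC 1, 2 and 3 against 60.7, 30.4 and 20.3 in SFRP2-siRNA 1, 2 and 3. SFRP2-siRNA 1 again lay inside the NC range and the remaining treated libraries below it. With means of 70.6 ± 17.8 and 37.1 ± 21.1 FPKM (SD, n = 3 each), the log2 fold change came to -1.02 (SE 0.40, 95% interval -1.97 to -0.08, limma adjusted p = 0.518), and the exact permutation p was 0.2. Of the 5886 exon bases of Lipe, 918 are shared with the antisense gene 4732471J01Rik, and the strand setting of the counting is not given in the sources used here, so reads of the pair cannot be told apart there.

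Mgll, the monoglyceride lipase that completes lipolysis, showed no such pattern (chr6:88724412-88828360, plus strand). NC libraries were at 93.6, 74.6 and 97.6 FPKM, and treated libraries at 110.5, 63.8 and 61.2 FPKM. SFRP2-siRNA 1 was the highest of all 6 libraries and SFRP2-siRNA 2 and 3 were the lowest. The difference of -0.22 on the log2 scale had a 95% interval from -0.84 to 0.41 (limma adjusted p = 0.708). The NC mean was 88.6 ± 12.3 FPKM and the treated mean 78.5 ± 27.7 FPKM (SD, n = 3 each). Mgll shares 167 of its 5077 exon bases with the antisense gene Gm26588.

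Of the regulators of adipose triglyceride lipase, neither Abhd5 nor G0s2 separated the groups. Abhd5 encodes CGI-58, the co-activator that perilipin holds back in the resting cell (chr9:122351608-122381524, plus strand). It was measured at 8.97, 11.1 and 12.3 FPKM in the NC libraries and at 13.0, 12.0 and 8.82 FPKM in the treated libraries. The group ranges nearly coincided, with means of 10.8 ± 1.70 and 11.3 ± 2.18 FPKM (SD, n = 3 each). Its difference was 0.05 on the log2 scale (95% interval -0.40 to 0.49, limma adjusted p = 0.910), and this sign turned under 3 of the 4 other scalings. Its exons share 950 of 5956 bases with the antisense gene A730085K08Rik.

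G0s2 encodes the inhibitor that binds adipose triglyceride lipase (chr1:193272161-193273217, minus strand). It stood at 286, 189 and 157 FPKM in NC 1, 2 and 3 and at 244, 248.6 and 83.8 FPKM in SFRP2-siRNA 1, 2 and 3. SFRP2-siRNA 1 and 2 lay within the NC range and SFRP2-siRNA 3 below it. Means of 211 ± 67.5 and 192 ± 93.8 FPKM (SD, n = 3 each) gave a log2 difference of -0.25 with a 95% interval from -1.36 to 0.87 (limma adjusted p = 0.812). The sign turned without SFRP2-siRNA 3, to 0.27.

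Among the droplet proteins, Plin1 was lower in SFRP2-siRNA 2 and 3 by a wider margin than Plin4 or Cidec. Plin1 encodes perilipin 1, which coats the adipocyte droplet and gates the access of lipases (chr7:79720218-79732903, minus strand). Its levels were 114.9, 80.1 and 74.3 FPKM in the NC libraries and 81.3, 44.6 and 30.6 FPKM in the treated ones, so that SFRP2-siRNA 1 fell inside the NC range and the other treated libraries outside it. The NC mean of 89.8 ± 21.99 FPKM compared with a treated mean of 52.2 ± 26.2 FPKM (SD, n = 3 each). The log2 fold change of Plin1 was -0.86 (SE 0.37, 95% interval -1.73 to 0.01), at a limma adjusted p of 0.518 and an exact permutation p of 0.3.

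Plin4 encodes perilipin 4, which coats small nascent droplets (chr17:56100591-56109803, minus strand). It measured 96.1, 106.4 and 114.6 FPKM in NC 1, 2 and 3 and 164.5, 92.6 and 70.1 FPKM in SFRP2-siRNA 1, 2 and 3. The treated libraries lay on both sides of the NC range. Its means were 106 ± 9.30 and 109 ± 49.3 FPKM (SD, n = 3 each), while its log2 difference was -0.04 (95% interval -0.79 to 0.70, limma adjusted p = 0.951), so the sign depended on the scale. Whole reads were recovered for Plin4 at a gene length of 6350 bases and not at the 5777 bases of GENCODE vM21. Of the latter, 17 are shared with the antisense gene Hdgfl2.

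Cidec encodes the protein through which neighbouring droplets exchange lipid and merge into a large one (chr6:113424634-113435760, minus strand). Its FPKM values were 204, 202 and 258 in the NC libraries and 287, 192 and 138 in the treated libraries. SFRP2-siRNA 1 exceeded all NC libraries and SFRP2-siRNA 2 and 3 were below all of them. With means of 221 ± 31.8 and 206 ± 75.5 FPKM (SD, n = 3 each), its difference was -0.16 on the log2 scale (95% interval -0.86 to 0.54, limma adjusted p = 0.807).

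Adrb3 encodes the β3-adrenergic receptor, the catecholamine receptor typical of rodent fat cells (chr8:27225776-27250616, minus strand). It had the lowest level of the members, 8.69, 5.87 and 5.59 FPKM in NC 1, 2 and 3 and 4.26, 1.43 and 1.16 FPKM in SFRP2-siRNA 1, 2 and 3, on 185 to 1294 reads. No treated library reached the NC range. The NC mean of 6.72 ± 1.71 FPKM was 2.94 times the treated mean of 2.28 ± 1.72 FPKM (SD, n = 3 each). Its log2 fold change was -1.33 (SE 0.35, 95% interval -2.17 to -0.49, limma adjusted p = 0.518, exact permutation p = 0.1), a value that the pseudocount of 1 shrinks at such levels. Of its 3376 exon bases, 839 are shared with the antisense gene Gm45470.

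The order of the members by level was similar in both groups. In the NC libraries Pnpla2, Cidec and G0s2 had the highest FPKM and overlapped in range. Below them, with no overlap, came Plin4, Plin1, Mgll, Pnpla3 and Lipe, whose neighbours in the order overlapped one another. Abhd5 and Adrb3 came last, and their ranges of 8.97 to 12.3 and 5.59 to 8.69 FPKM did not meet. In the libraries labelled SFRP2-siRNA Cidec ranked highest by mean and Pnpla2 was at rank 3. Pnpla3 moved from rank 7 to rank 8, behind Lipe.

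The treated libraries were spread widely among themselves. SFRP2-siRNA 3 had the lowest level of all 6 libraries in all 10 members. SFRP2-siRNA 2 lay below all NC libraries in 8 members, and SFRP2-siRNA 1 did so in 2, Pnpla3 and Adrb3. SFRP2-siRNA 1 was instead the highest of all libraries in 4 members (Mgll, Abhd5, Plin4 and Cidec), and NC 1 was the highest in the other 6. Added together, the members held 0.335, 0.286 and 0.281% of all FPKM in the NC libraries and 0.351, 0.222 and 0.145% in the treated ones. Without SFRP2-siRNA 1, 8 of 10 members had groups that did not overlap, all lower in the treated libraries, against 7.97% of all genes lower and 23.7% higher, with Abhd5 and G0s2 as the exceptions. The adipocyte markers described further on had the same counts, 2 of 10 lower without overlap with all libraries and 8 of 10 without SFRP2-siRNA 1. The fit without this library gave log2 fold changes of -1.95 for Pnpla3, -1.73 for Adrb3, -1.44 for Lipe, -1.40 for Pnpla2 and -1.23 for Plin1, and called 0 members. Leaving out SFRP2-siRNA 3 moved them the other way, to -1.60 for Pnpla3, -1.09 for Adrb3, -0.67 for Lipe, -0.63 for Pnpla2 and -0.54 for Plin1. Without NC 1 the value of Pnpla2 was -0.60.

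**Figure D3:**
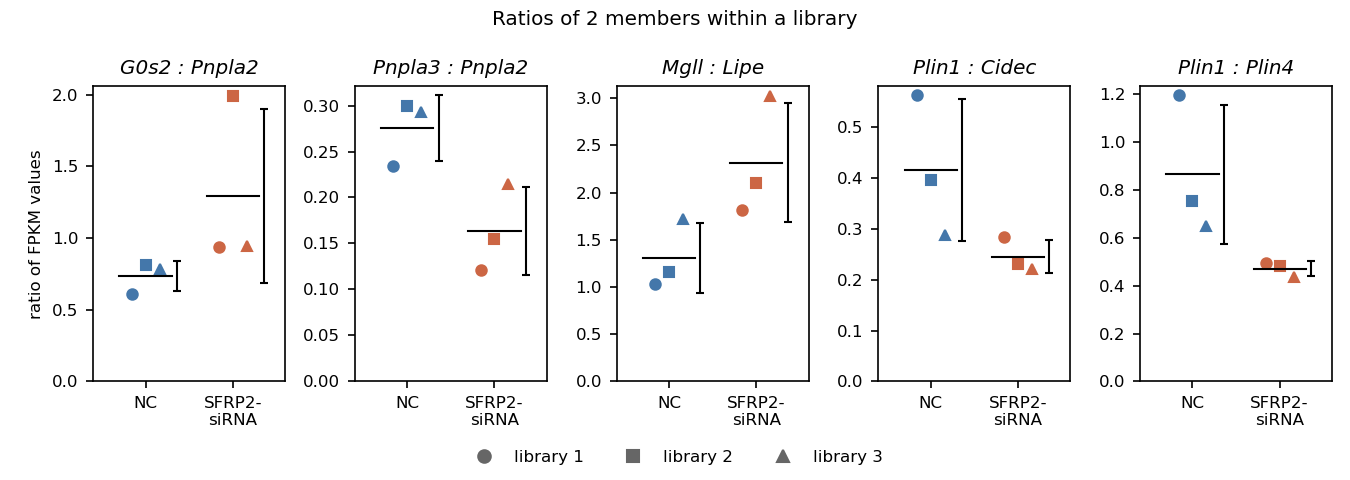
Ratio of the FPKM values of 2 members within the same library (y axis, linear, from 0), for 5 pairs, with NC in blue, SFRP2-siRNA in orange, group means as lines and SD as bars. Only ratios whose groups did not overlap are drawn. In each panel, by that choice, the 3 treated libraries lie on one side of the 3 NC libraries.

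Ratios within a library do not depend on its scaling, and 8 were taken after the values had been seen, as a description with no test. The share of all gene pairs whose ratios do not overlap was not counted, so these ratios have no background. The inhibitor G0s2 stood at 0.612, 0.808 and 0.784 times the level of its target Pnpla2 in the NC libraries and at 0.936, 1.99 and 0.946 times in the treated libraries. All treated values were above all NC values. Mgll relative to Lipe was 1.03, 1.16 and 1.72 in NC 1, 2 and 3 and 1.82, 2.10 and 3.02 in SFRP2-siRNA 1, 2 and 3, again without overlap. Pnpla3 relative to Pnpla2 was 0.234, 0.299 and 0.293 in NC and 0.121, 0.154 and 0.215 in the treated libraries, with every treated value below every NC value. Plin1 relative to Plin4 was 1.20, 0.752 and 0.648 against 0.494, 0.482 and 0.436, and Plin1 relative to Cidec was 0.563, 0.396 and 0.288 against 0.283, 0.232 and 0.221. For Plin1 to Cidec the gap between NC 3 and SFRP2-siRNA 1 was small.

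The other 3 ratios overlapped between the groups. Lipe to Pnpla2 was 0.194, 0.276 and 0.283 in NC and 0.233, 0.243 and 0.229 in the treated libraries, which spanned a narrower range. Pnpla2 to Plin1 was 4.07, 2.93 and 2.69 against 3.201, 2.80 and 2.90. The proportions among the lipases Pnpla2 and Lipe and the coat protein Plin1 thus did not separate the groups. The co-activator Abhd5 relative to Pnpla2 was 0.0191, 0.0475 and 0.0617 in NC and 0.04997, 0.0959 and 0.0996 in the treated libraries.

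All members are expressed in fat cells, so they were set beside 10 adipocyte markers, none of them a member. The markers were present in every library. Their summed level was 1595 to 1831 FPKM in NC and 899 to 1825 FPKM in the treated libraries, and none was at 0. Adipoq, the adipocyte hormone adiponectin, was at 196, 218 and 268 FPKM in NC 1, 2 and 3 and at 287, 185 and 132 FPKM in SFRP2-siRNA 1, 2 and 3. The mean of the markers was 6.71, 6.45 and 6.73 in NC and 6.62, 5.83 and 5.69 in the treated libraries on the log2(FPKM + 1) scale. This difference of -0.58 had overlapping groups and an exact permutation p of 0.2. Of the 10 markers, 2 were lower at an unadjusted p under 0.05 (limma) and 0 were higher, with a median log2 fold change of -0.23. By that p 2.86% of all genes were lower and 6.72% higher. The 2 markers were Thrsp, a regulator of lipid synthesis (-2.25), and Slc2a4, the insulin-responsive glucose transporter (-0.95).

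**Figure D4:**
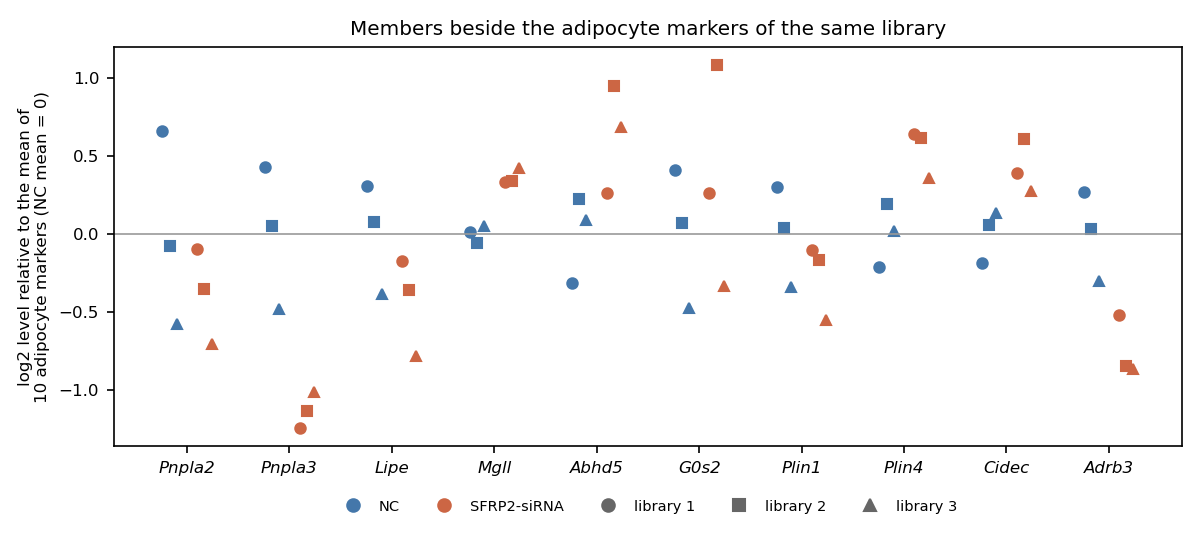
Level of each member minus the mean of the 10 adipocyte markers in the same library, on the log2(FPKM + 1) scale and shifted so that the NC mean of each member is 0 (y axis), with NC in blue, SFRP2-siRNA in orange and a marker shape for each library number. Pnpla3 and Adrb3 of the treated libraries lie below all NC points, whereas Mgll, Abhd5, Plin4 and Cidec lie above them.

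Relative to this marker mean, members were found on both sides. Pnpla3 and Adrb3 remained lower in all treated libraries. For Pnpla3 the level minus the marker mean was 0.08, -0.30 and -0.83 in NC 1, 2 and 3 and -1.60, -1.49 and -1.37 in SFRP2-siRNA 1, 2 and 3 on the log2 scale. For Adrb3 it was -3.43, -3.67 and -4.01 in NC and -4.23, -4.55 and -4.58 in the treated libraries. The differences of -1.13 and -0.75 had an exact permutation p of 0.1 each, the smallest possible. Relative to the same marker mean, 0.287% of all genes were lower without overlap. Mgll, Abhd5, Plin4 and Cidec were higher relative to the markers in all treated libraries, by 0.37, 0.63, 0.54 and 0.43 on the log2 scale, a side on which 31.9% of all genes lay, so these 4 of 10 members are near the background. Pnpla2 (-0.39), Lipe (-0.44), Plin1 (-0.28) and G0s2 (0.34) overlapped.

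With Adipoq alone as the reference, 3 members did not overlap between groups in place of 6. Pnpla3 (-1.48) and Adrb3 (-1.09) were again lower and Plin4 was higher (0.19). Against this reference 0.375% of all genes were lower and 7.49% higher without overlap.

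Markers of other cell types were measured beside the members. The summed level of 6 brown adipocyte markers was 512 to 1480 FPKM in NC and 138 to 316 FPKM in the treated libraries, with 2 of the 6 lower at an unadjusted p under 0.05 and none at 0. Among these was Ucp1, the uncoupling protein of brown and beige fat (log2 fold change -3.55). Its level was 1061, 615 and 314 FPKM in NC 1, 2 and 3 and 157, 39.9 and 19.1 in SFRP2-siRNA 1, 2 and 3. The summed level was mostly that of Ucp1 and Cox8b, at 1061 and 359 FPKM in NC 1. Elovl3, of the same list, overlapped between groups (log2 fold change -0.06), and Zic1 was higher in the treated libraries. Within each group, the order of the libraries by Ucp1 was library 1, 2 and 3 from highest to lowest. Pnpla2, Pnpla3, Lipe, Plin1 and Adrb3 had this order, and Mgll, Abhd5, G0s2, Plin4 and Cidec did not. The order was not particular to Ucp1. Of the general adipocyte markers, Pparg and Adig also had it and the rest did not. The share of all genes with this order was not counted. The 8 macrophage markers summed to 852 to 1505 FPKM in NC and 1698 to 2178 FPKM in the treated libraries, with 6 of 8 higher at an unadjusted p under 0.05. The 8 fibroblast markers summed to 900.2 to 1982 FPKM in NC and 2209 to 2293 FPKM in the treated libraries, with 7 of 8 higher by that p. The 8 muscle markers ran from 3328 to 6554 FPKM in NC and from 4473 to 12487 FPKM in the treated libraries, highest in SFRP2-siRNA 3, the library lowest in every member. At an unadjusted p under 0.05, 0 of the 8 muscle markers differed in either direction, and all 8 overlapped between groups. Without SFRP2-siRNA 1, 4 of the 8 muscle markers were higher without overlap in place of 0, and 4 of the 6 brown adipocyte markers lower in place of 2, while the macrophage (3) and fibroblast (7) counts of higher markers stayed as they were. Of all genes, 2.86% were lower and 6.72% higher at an unadjusted p under 0.05 (limma). Without overlap, 3.92% were lower and 13.9% higher, or 7.97% and 23.7% once SFRP2-siRNA 1 was left out. None of these markers was at 0 in any library, and their part in the member values was not tested.

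**Figure D5:**
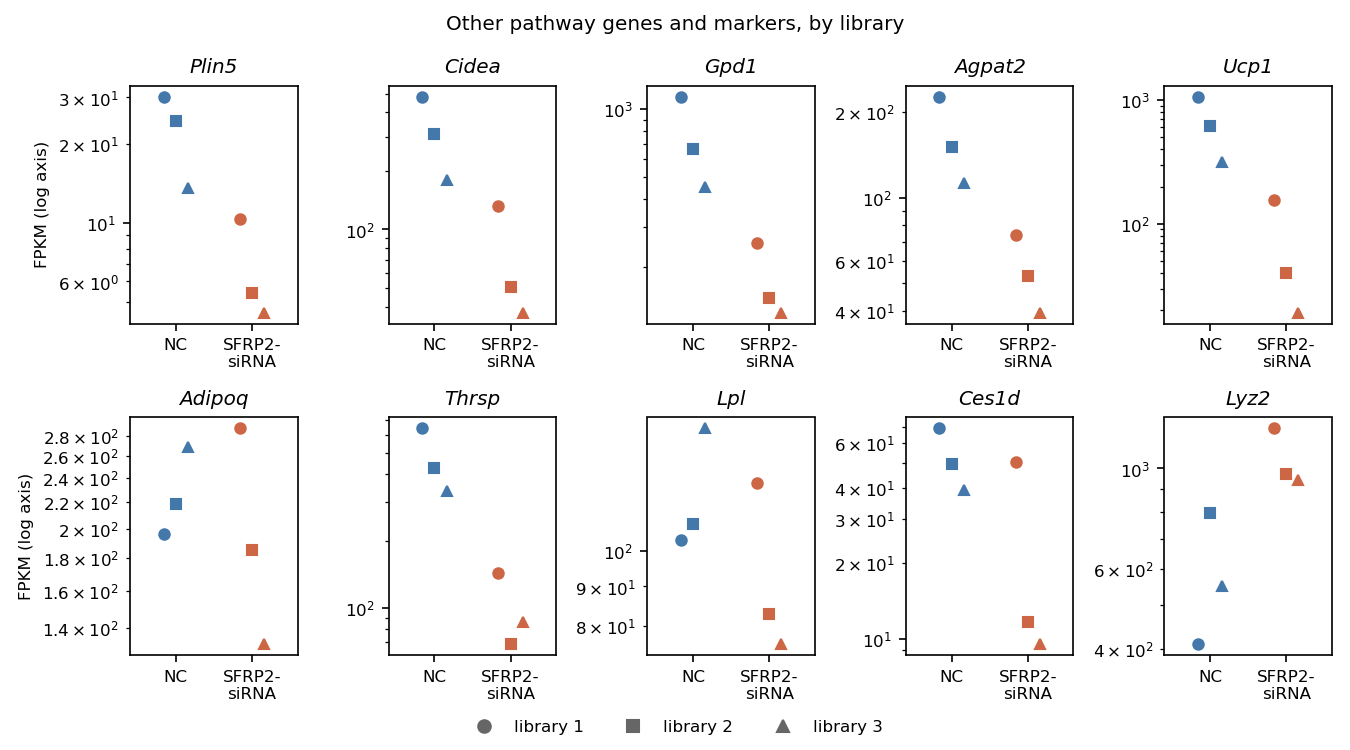
FPKM on a log axis (y) of 10 pathway and marker genes in each library, NC in blue and SFRP2-siRNA in orange, with a marker shape for each library number. Plin5, Cidea, Gpd1, Agpat2, Ucp1 and Thrsp of the treated libraries lie below all NC libraries, Lyz2 lies above them, and Adipoq, Lpl and Ces1d overlap.

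The wider pathway was described by 5 lists of 74 genes, 71 of which passed the filter. None passed the thresholds (limma). At an unadjusted p under 0.05, 13 were lower and 0 higher, against 2.86% and 6.72% of all genes. In 12 the treated libraries lay below all NC libraries and in 4 above them, as in 3.92% and 13.9% of all genes. Without SFRP2-siRNA 1 these counts were 32 and 5, against 7.97% and 23.7%. The same shares apply to the counts of each list below. The median log2 fold change of the 71 genes was -0.09.

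Of 14 other droplet genes, 12 were kept, with a median log2 fold change of -0.06 and with 2 lower and 0 higher at an unadjusted p under 0.05. Plin5, the perilipin of oxidative tissues that couples droplets to mitochondria, was at 30.2, 24.4 and 13.6 FPKM in NC 1, 2 and 3 and at 10.4, 5.42 and 4.57 FPKM in SFRP2-siRNA 1, 2 and 3. Cidea, the relative of Cidec found in brown fat, was at 482, 311 and 180.0 FPKM in NC and at 132, 50.7 and 37.3 FPKM in the treated libraries. Neither gene overlapped between groups, and their log2 fold changes were -1.61 and -2.23 (limma adjusted p = 0.518 for each). Hsd17b11, a droplet-bound dehydrogenase, was higher without overlap, at 8.93, 9.99 and 8.23 FPKM in NC and 14.5, 11.5 and 10.1 FPKM in the treated libraries (log2 fold change 0.36). Without SFRP2-siRNA 1, genes of this list lower without overlap went from 3 to 6.

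Of 22 genes of hormone and cAMP control, all kept, 4 were lower and 0 higher at an unadjusted p under 0.05, with a median log2 fold change of -0.01. The β1-adrenergic receptor gene Adrb1 was at 2.40, 1.34 and 0.884 FPKM in NC and at 0.703, 0.418 and 0.213 FPKM in the treated libraries. The treated libraries were thus lower without overlap in both Adrb1 and Adrb3. The prostaglandin receptor gene Ptger3, which lowers cAMP, had a log2 fold change of -0.52 and Prkar2b, a regulatory subunit of protein kinase A, one of -0.82. Adora1, the adenosine receptor that also restrains lipolysis, completed the count at -0.97 and is named after its value was seen. Genes lower without overlap went from 4 to 9 without SFRP2-siRNA 1. The genes lower at that p thus included both a stimulating receptor and restraining ones.

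Among 17 other lipases and their partners, 3 were lower and 0 higher at that p, and the median log2 fold change was -0.09. They were Abhd6, another monoglyceride lipase (-0.38), Ddhd2, a triglyceride lipase of the nervous system (-0.58), and Ces1d, a carboxylesterase of fat and liver (-1.46). Related genes lie beside Ces1d in the genome, and whether reads were shared among them was not measured, so its value is uncertain. Without SFRP2-siRNA 1, 6 genes in place of 1 were lower without overlap. The extracellular lipoprotein lipase gene Lpl is shown in the plot of pathway and marker genes and overlapped between groups, at 103, 109 and 145 FPKM in NC and 123, 83.0 and 75.7 FPKM in the treated libraries.

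The 8 genes that handle the released fatty acids and glycerol had no member at an unadjusted p under 0.05 in either direction, and their median log2 fold change was -0.09. None separated the groups with all libraries, and 4 of 8 were lower without overlap once SFRP2-siRNA 1 was left out. The 3 with the smallest p were Aqp7, the glycerol channel of fat cells (-0.85), Acsl1, which activates fatty acids (-0.38), and Fabp4, the fatty acid carrier of fat cells (-0.65). Fabp4 was at 1307, 902 and 912 FPKM in NC 1, 2 and 3 and at 1187, 614 and 379 FPKM in SFRP2-siRNA 1, 2 and 3.

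Genes that rebuild triglyceride had the lowest median of the 5 lists, -0.27 over 12 of 13 genes kept, with 4 lower and 0 higher at an unadjusted p under 0.05. Gpd1, which supplies the glycerol backbone, was at 1135, 668 and 453 FPKM in NC and at 255, 146 and 126 FPKM in the treated libraries (log2 fold change -2.06). Agpat2, which adds the acyl chain to lysophosphatidic acid, was at 225, 151 and 112 FPKM in NC and at 73.7, 53.2 and 39.5 FPKM in the treated libraries (-1.52). Lpin1, a phosphatidic acid phosphatase, differed by -0.78 and Dgat2, which makes triglyceride and is named after its value was seen, by -0.72. All 4 genes had groups that did not overlap and a limma adjusted p of 0.518. Without SFRP2-siRNA 1, 7 of the 12 genes were lower without overlap.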

How the data were processed

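RNA-seq was performed on 6 wound libraries, 3 per group. Per the labels, paired-end mRNA libraries were made, and the authors deposited a table of FPKM values per Ensembl gene. The submitters' processing notes name HISAT2, featureCounts and Subread; the genome build and annotation are not given in the sources used here. Symbols matched 32582 of 33184 IDs.

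Groups were taken from the sample titles. No source states that each library is a separate animal, so p-values measure the spread between these libraries. Values were analysed as log2(FPKM + 1), on which scale fold changes understate those of low genes. The filter kept genes whose mean reached 0.5 FPKM. The test was limma 3.58.1 in R 4.3.3 (lmFit, eBayes with an intensity trend, two-sided), adjusted by Benjamini-Hochberg over the genes kept, at an adjusted p of 0.05 and an absolute log2 fold change of 1. Many genes share an adjusted p of 0.518 because the adjustment gives tied values. An exact permutation test (two-sided) was run as well for the members, the listed genes, Sfrp2 and the values relative to adipocyte markers. The deposited values are not counts, so limma on log values was used, and it was tested on simulated data.

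Low FPKM values were whole multiples of 1 read, within 0.02 of a read. Exon lengths of GENCODE vM21 (GRCm38) gave whole reads for 98.3% of genes with a length, and gene positions are quoted from it. Of values of 1 to 20 reads, 64.5% were even, so mates were counted singly. The reads were used for limma voom as an alternative.

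All members were named. Of each pathway and marker list, the 3 genes with the smallest p were eligible, as were the adipocyte markers and Sfrp2. Lpl, Adora1, Dgat2, Hcar2, Zic1 and Elovl3 fall outside this rule and were chosen after their values were seen. The members and lists were chosen with earlier results of these data known. Alternatives were a pseudocount of 0.1, no filter or one at 2 FPKM, 4 scalings, no trend, a replicate block, sample weights, leaving out each library and voom. Ratios and overlap without SFRP2-siRNA 1 were added after the data were seen.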

Additional observations from a re-analysis of the deposited data

How the results depend on the processing

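Over the 17 alternatives, no member passed the thresholds, the smallest adjusted p of a member was 0.119 (limma), and 158 of 170 member differences kept their direction. The 2 other filter settings, the fit with no trend and the replicate block cannot change a member's difference. Their agreement in direction was therefore fixed in advance. Plin4 turned to 0.050 with equal sums per library, 0.015 without NC 3, 0.027 without SFRP2-siRNA 2 and 0.23 without SFRP2-siRNA 3. Abhd5 turned to -0.052 with equal sums without mitochondrial genes, -0.10 under median-of-ratios factors, -0.072 under quantile normalization, -0.068 without NC 1 and -0.054 without SFRP2-siRNA 1. G0s2 turned to 0.20 with sample weights and 0.27 without SFRP2-siRNA 3, and Cidec to 0.096 without SFRP2-siRNA 3; their lowest values on leaving out a library were -0.51 (G0s2), -0.43 (Cidec) and -0.38 (Plin4). The scalings put the median of all genes at 0.20 with equal sums and at 0.00 with median-of-ratios. The 143 genes at an unadjusted p under 0.05 and an absolute log2 fold change above 1 became 307 with a pseudocount of 0.1, 218 with sample weights and 349 with voom, and 105 (without NC 1) to 349 (without NC 2) when a library was left out, with 342 without SFRP2-siRNA 1 and 293 without SFRP2-siRNA 3. By that rule the 3 members became 2 to 5 and the 5 other pathway genes 4 to 10 when a library was left out, both highest without SFRP2-siRNA 1, and voom gave 8 pathway genes. Without SFRP2-siRNA 1, members whose groups did not overlap went from 2 to 8 and pathway genes from 16 to 37, lower and higher together. Of all genes, 3.92% were lower and 13.9% higher without overlap, or 7.97% and 23.7% without SFRP2-siRNA 1. Relative to Adipoq alone 3 members did not overlap in place of 6 relative to the marker mean. All-gene shares were 0.375% lower and 7.49% higher for Adipoq, and 0.287% and 31.9% for the marker mean. Leaving out a library gave 6 to 9 members relative to the marker mean (9 without NC 3), for which the all-gene share was not counted. The cause of these shifts was not tested. Libraries of the same replicate number correlated at -0.05, -0.15 and 0.38 in their deviations from the group means. These 3 values alone cannot decide whether the numbers pair libraries. A replicate block cannot change the members' differences, and it called 0. It moved the limma adjusted p to 0.193 for Pnpla3, 0.209 for Adrb3 and 0.259 for Pnpla2. With 3 libraries per group the exact test cannot go below 0.1, and reads cover counting error only.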

Other observations

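Hcar2, the receptor through which nicotinic acid and ketone bodies restrain lipolysis, did not join the lower genes of its list. It was at 41.3, 36.3 and 37.1 FPKM in NC 1, 2 and 3 and at 70.3, 98.6 and 28.1 FPKM in SFRP2-siRNA 1, 2 and 3, with overlapping groups and a log2 fold change of 0.59 (SE 0.43). SFRP2-siRNA 2, its highest library, was also that with the highest ratio of G0s2 to Pnpla2. Markers of sebocytes, the other lipid-storing cells of skin, had a median log2 fold change of 0.18 over 7 genes, with 0 at an unadjusted p under 0.05 (limma) in either direction. Keratinocyte markers had a median of -0.29 over 8 genes, with 1 lower at that p, Lor, the loricrin of the cornified layer (-0.80).

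Within the brown adipocyte list the genes did not move as a block. The tissue was bulk, so which cells gave the reads of each listed gene was not measured. Cox8b, a subunit of cytochrome c oxidase, was at 359, 156 and 119 FPKM in NC 1, 2 and 3 and at 83.3, 53.4 and 62.4 FPKM in SFRP2-siRNA 1, 2 and 3. Zic1, a transcription factor of the interscapular depot, was higher in all treated libraries, at 1.74, 1.70 and 1.26 FPKM in NC and 2.45, 2.47 and 1.77 FPKM in the treated libraries. Ppargc1a overlapped between groups (log2 fold change -0.37). Neither was past the thresholds.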
